A study of Arabidopsis thaliana with 22 samples.

Results

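The genes described here are the tau and phi glutathione S-transferases of *Arabidopsis thaliana*, *GSTU1* to *GSTU28* and *GSTF2* to *GSTF14*. They were taken by gene identifier, with no use of their measured values, and all 41 (28 tau and 13 phi) were found among the 33602 genes of the deposited count table. RNA from 10-day-old seedlings was sequenced in 22 libraries, from the wild type (WT) and from *lrx345*, a triple mutant of 3 leucine-rich repeat extensin genes (*LRX3*, AT3G24480 and AT4G18670) that tie the cell wall to receptor signalling. Seedlings were collected before NaCl treatment (0 h, 2 libraries per genotype) and after 6, 24 and 72 h of it (3 libraries per genotype at each time). The mutant seedlings carry mutations in all 3 genes at every time, and no single or double mutant is among these libraries. No seedlings kept without NaCl were collected after 0 h, so the effect of NaCl and that of age or time of day cannot be told apart in a comparison over time. The methods speak of biological replicates without saying whether these were separate cultures, and p-values measure only the spread between these libraries.

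Glutathione S-transferases join the tripeptide glutathione to reactive or toxic compounds, or bind and carry such compounds without changing them. The conjugates are moved into the vacuole by ABCC transporters and broken down by gamma-glutamyl transpeptidases. The tau and phi classes are the large classes of plants, and many of their genes lie in tandem arrays. They are known as genes that respond to salicylic acid, jasmonate and its precursors, auxin, herbicide safeners and oxidative damage. Part of that response is read through TGA transcription factors, bZIP proteins that bind the word TGACG. A closely spaced pair of such words is the core of the as-1 or ocs element, which was found in plant pathogen promoters and in several GST promoters.

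The 250 bases before the annotated start of each gene (TAIR10) were therefore searched for TGACG on either strand. TGACG was present for 14 of the 41 members (34.1%), 11 of 28 tau and 3 of 13 phi genes, and in 19.7% of the windows of 33322 nuclear genes. At least 2 such words were found for 4 members, *GSTU1*, *GSTU7*, *GSTU9* and *GSTU20*, which is 9.76% of the members and 3.41% of all windows. A pair of TGACG words in the same direction with any 7 bases between them was found for 2 members, *GSTU1* and *GSTU7* (4.88%), and for 17 of all 33322 windows (0.051%). These genes stand at opposite ends of the same tandem array on chromosome 2. A match of letters is a description and not a measured binding site. The sequences shown are those of the members with at least 2 such words, besides *GSTU20*, for the reason given below. The transcripts of *GSTU1*, *GSTU7* and *GSTU9* were not called before NaCl and were higher in *lrx345* after 24 and 72 h. So were those of members without the word, such as *GSTU2* and *GSTU24*, and a link between word and course was not tested. The sequences come from the RefSeq assembly TAIR10.1, are cut where RefSeq places an exon, and have each TGACG (or its reverse, CGTCA) in capitals.

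*GSTU1*, chr2:12632539-12632723, minus strand: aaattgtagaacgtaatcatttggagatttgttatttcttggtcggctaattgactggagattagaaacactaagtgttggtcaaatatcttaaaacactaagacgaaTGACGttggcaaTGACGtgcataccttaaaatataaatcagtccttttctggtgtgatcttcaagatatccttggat
*GSTU7*, chr2:12618900-12619057, minus strand: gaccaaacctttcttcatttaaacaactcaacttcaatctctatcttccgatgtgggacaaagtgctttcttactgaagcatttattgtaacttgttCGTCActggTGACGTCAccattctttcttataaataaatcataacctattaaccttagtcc
*GSTU9*, chr5:25089627-25089870, minus strand: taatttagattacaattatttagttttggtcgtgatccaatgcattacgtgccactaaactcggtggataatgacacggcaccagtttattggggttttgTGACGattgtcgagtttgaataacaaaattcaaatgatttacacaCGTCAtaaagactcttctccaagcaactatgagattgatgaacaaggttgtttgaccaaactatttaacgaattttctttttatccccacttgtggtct

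Read from its own first base, the paired element of *GSTU1* on the gene's strand and that of *GSTU7* on the opposite strand are as follows, with the TGACG words in capitals.
*GSTU1*: TGACGttggcaaTGACG
*GSTU7*: TGACGtcaccagTGACG

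The words of *GSTU1* began 142 and 130 bases before the gene, and those of *GSTU7* between 61 and 49 bases before it, where a TGACG and a CGTCA overlap. The words of *GSTU9* began 150 and 105 bases before the gene. Those of *GSTU20*, 71 and 15 bases before the gene start of the count table, lie inside the longer transcript that RefSeq gives and are not shown. The single words of *GSTU19* and *GSTF13*, 72 and 35 bases before that start, also lie inside the RefSeq gene. So do the whole windows of *GSTF2*, *GSTU8* and *GSTU24*. The counts above include these words and windows, so not all of the searched sequence is upstream of the RefSeq start. For the related word TTGAC, the core of the W-box bound by WRKY factors, 26 of 41 members (63.4%) and 44.2% of all windows had a match. TTGAC and TGACG can overlap, as in TTGACG.

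The depth, as fragments assigned to genes, ran from 7413461 to 15047080 (median 11799160.5). The transcripts of the 3 mutated genes were lower in *lrx345* at every time but not absent, with log2 differences at 0 h of -1.96 for *LRX3*, -0.55 for AT3G24480 and -2.56 for AT4G18670. Transcript levels are given as FPKM, a fragment count corrected for exon length and for library size scaled by the TMM method. Log2 differences, their standard errors (SE) and p-values come from the quasi-likelihood test of edgeR, Benjamini-Hochberg adjusted across 21831 sufficiently counted genes, and a gene was called at an adjusted p below 0.05. Of the 41 members 39 were tested. *GSTU15* and *GSTU21* had too few counts, with at most 3 and 12 counts in any library and FPKM of at most 0.332 and 1.42. In these bulk samples, fewer cells of a type and less RNA per cell cannot be told apart. The sum of 8 root markers, among them *CASP1*, *COBL9* and *EXPA7*, was lower in *lrx345* than in WT at every time. Its FPKM was 132 to 145 against 167 to 178 at 0 h, 29.2 to 32.4 against 90.2 to 93.5 at 6 h, 29.9 to 36.6 against 101 to 112 at 24 h and 77.9 to 97.8 against 176 to 191 at 72 h. The sum of 6 green shoot markers, such as *RBCS1A* and *RCA*, was 5259 to 6353 in *lrx345* and 7046 to 7169 in WT at 0 h, and 3851 to 4739 and 8079 to 9079 at 72 h. At 6 h the genotypes overlapped, with 5341 to 6933 in *lrx345* and 6633 to 8588 in WT, and at 24 h they had 6488 to 7153 and 9491 to 10719. Of the root markers 1, 7, 8 and 6 were called lower at 0, 6, 24 and 72 h and 2 higher at 72 h, and of the green shoot markers 2, 1, 6 and 6 were lower. Of all genes tested 8.02%, 17.7%, 28.4% and 30.7% were lower at these times, and 31.3% were higher at 72 h. The root counts at 0 h and of higher markers at 72 h, and the green shoot count at 6 h, were near these shares. No marker was at 0 in any library, and the part of both lists in the results was not tested.

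The share of all counted fragments that fell on these 41 genes was 0.438% and 0.460% in WT and 1.26% and 1.47% in *lrx345* before treatment. At 0 h the phi genes took 0.331% and 0.356% of all fragments in the WT libraries and 1.11% and 1.33% in the *lrx345* libraries. After 72 h they took 0.500% to 0.617% in WT and 0.692% to 0.801% in *lrx345*, so that the phi share of WT went up and that of the mutant came down. Much of the rise in WT was that of 1 gene, *GSTF2*, with 0.0797% and 0.0874% at 0 h and 0.210% to 0.327% at 72 h. In *lrx345* *GSTF2* took 0.484% and 0.592% at 0 h and 0.378% to 0.457% at 72 h. The tau genes took a far smaller share, 0.104% and 0.107% in WT and 0.144% and 0.151% in *lrx345* at 0 h. After 72 h the tau share was 0.120% to 0.140% in WT and 0.231% to 0.250% in *lrx345*. The genotypes did not overlap for either class at any of the 4 times. The ratio of the means, *lrx345* over WT, was 3.55, 2.67, 2.94 and 1.35 for phi and 1.4, 1.34, 1.72 and 1.86 for tau at 0, 6, 24 and 72 h. The exact two-sided permutation test gave p = 0.1 for either class at 6, 24 and 72 h and p = 0.333 at 0 h, the smallest values that 3 against 3 and 2 against 2 libraries allow.

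**Figure D1:**
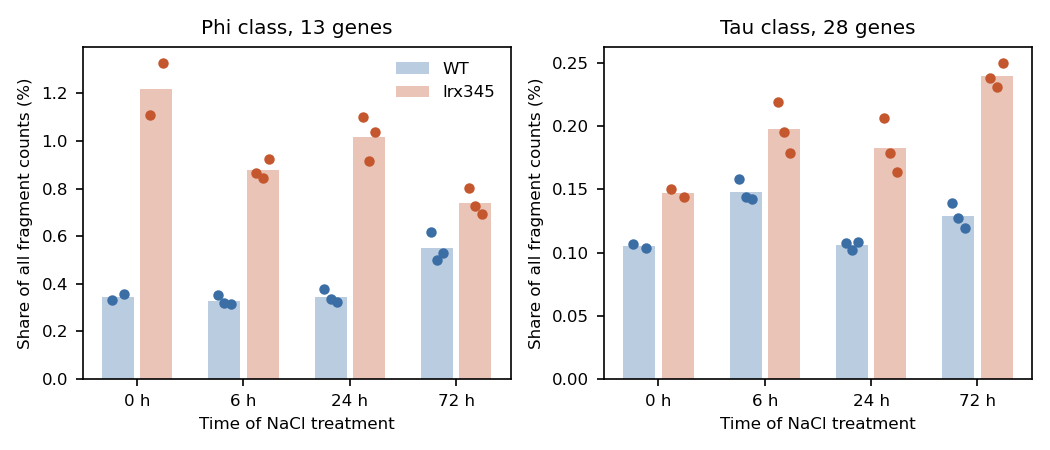
Share of all fragments counted on genes (%, linear axes from 0, different for each panel) that fell on the 13 phi genes (left) and the 28 tau genes (right), by time of NaCl treatment. Points are libraries and bars are group means, WT in blue and lrx345 in orange. The phi genotype ratio is 3.55 at 0 h and 1.35 at 72 h, whereas the tau ratio goes from 1.4 to 1.86.

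A few genes make up most of this signal. In WT at 0 h the highest mean FPKM were those of *GSTF9* (1095), *GSTF2* (806), *GSTF10* (793), *GSTU20* (357) and *GSTU19* (274), and these 5 genes held 77.4% of the FPKM summed over all members. *GSTF2* and *GSTF10* are neighbours in this order that overlapped, with 758 and 854 in the libraries for *GSTF2* and 745 and 842 for *GSTF10*. Of the members tested, *GSTU3*, *GSTU12*, *GSTU11*, *GSTF5* and *GSTF3* were each at an FPKM of 1.41 or less in both WT libraries at 0 h. These rare transcripts include the members with the largest genotype differences, given next.

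Before NaCl treatment, 19 of the 39 members tested were higher in *lrx345* and none was lower, where 10.0% of all genes tested were higher and 8.02% lower. The 19 were 10 of 13 phi genes and 9 of 26 tau genes, and the median log2 difference was 1.17 for phi and 0.38 for tau, beside -0.04 over all genes. DESeq2 also called 0 members lower, and without adjustment edgeR put 1 member, *GSTF14*, past the threshold of 0.05. *GSTU3* had a log2 difference of 2.63 (SE 0.93, adjusted p = 0.0524) and was not called.

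*GSTF2* (AT4G02520) binds camalexin, auxin-like and other small ligands and is the member with the most fragments. Its FPKM was 758 and 854 in WT and 4748 and 5938 in *lrx345* at 0 h, a log2 difference of 2.73 (SE 0.23, adjusted p = 4.86e-09). At 6 h it was 450 to 856 in WT and 3479 to 3994 in *lrx345*, and at 24 h 1082 to 1187 and 4895 to 6241. At 72 h the WT libraries had 3281, 2095 and 2483 and the mutant libraries 5261, 4435 and 4261. WT rose towards the mutant at 72 h, and the groups still did not overlap (log2 difference 0.83, SE 0.17, adjusted p = 0.000262). In WT *GSTF2* rose by 1.70 on the log2 scale from 0 h to 72 h (SE 0.21, adjusted p = 5.19e-07), and in *lrx345* the change was -0.20 (SE 0.19, adjusted p = 0.369).

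*GSTF6* (AT1G02930), which conjugates glutathione in the synthesis of the phytoalexin camalexin, and its tandem neighbour *GSTF7* were also higher in *lrx345* at every time, by less at 72 h than at 0 h. The FPKM of *GSTF6* at 0 h was 141 and 178 in WT and 755 and 1276 in *lrx345*. That of *GSTF7* was 147 and 170 in WT and 820 and 1544 in *lrx345*. In both genes every mutant library was above every WT library, and the mutant libraries differed from each other more than the WT libraries did. The log2 difference of *GSTF6* was 2.67 at 0 h (SE 0.22, adjusted p = 4.86e-09), 2.15 at 6 h, 1.58 at 24 h and 0.56 at 72 h (SE 0.17, adjusted p = 0.00663). The log2 difference of *GSTF7* was 2.90 at 0 h, 2.35 at 6 h, 1.58 at 24 h and 1.13 at 72 h (SE 0.19, adjusted p = 1.39e-05). *GSTF5*, the next gene in the array, was at 0.0931 and 0.637 in WT and 4.76 and 5.62 in *lrx345* at 0 h (log2 difference 3.76, SE 0.46, adjusted p = 2.16e-06), from 1 count upward. *GSTF4*, the last of the 4, was at 6.72 and 6.42 in WT and 7.90 and 5.78 in *lrx345* and overlapped.

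*GSTF9* (AT2G30860), which also has glutathione peroxidase activity, and *GSTF10*, reported to bind the receptor kinase BAK1, are abundant neighbours on chromosome 2, and both were higher in *lrx345* at 0, 6 and 24 h and not called at 72 h. The FPKM of *GSTF9* at 0 h was 1059 and 1130 in WT and 2344 and 2354 in *lrx345*. At 72 h it was 1243, 1472 and 1473 in WT and 1657, 1457 and 1325 in *lrx345*. The genotypes were well apart before treatment and overlapped at the end. The log2 difference of *GSTF9* was 1.10 at 0 h (SE 0.14, adjusted p = 1.95e-06) and 0.08 at 72 h (SE 0.11, adjusted p = 0.521), and that of *GSTF10* was 1.17 and 0.01.

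The largest log2 differences at 0 h among members with a mean count of at least 50 were those of 2 tau genes, *GSTU12* (AT1G69920) and *GSTU4* (AT2G29460). The FPKM of *GSTU12* was 1.16 and 0.754 in WT and 11.1 and 27.1 in *lrx345*, a log2 difference of 4.29 (SE 0.43, adjusted p = 8.88e-08). That of *GSTU4* was 3.09 and 3.49 in WT and 51.7 and 66.3 in *lrx345*, a log2 difference of 4.16 (SE 0.40, adjusted p = 4.44e-08). Both transcripts were rare in WT, and neither group overlapped the other. *GSTU11*, next to *GSTU12* on chromosome 1, was at 1.23 and 1.41 in WT and 9.10 and 9.09 in *lrx345* (log2 difference 2.77, SE 0.45, adjusted p = 8.92e-05). Of the other tau genes called at 0 h, *GSTU10*, *GSTU6*, *GSTU16*, *GSTU20*, *GSTU5* and *GSTU17* had log2 differences from 1.69 to 0.54. Some calls at 0 h rested on single libraries. Without any one of the 4 libraries at 0 h, the adjusted p was 0.0702 to 0.116 for *GSTU5*, 0.0572 to 0.281 for *GSTU17* and 0.0635 to 0.135 for *GSTF8*. That of *GSTU6* was 0.0526 without the unnumbered WT library and 0.0518 without *lrx345* replicate 1, and that of *GSTU16* was 0.0550 without the unnumbered WT library and 0.0571 without *lrx345* replicate 2.

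**Figure D2:**
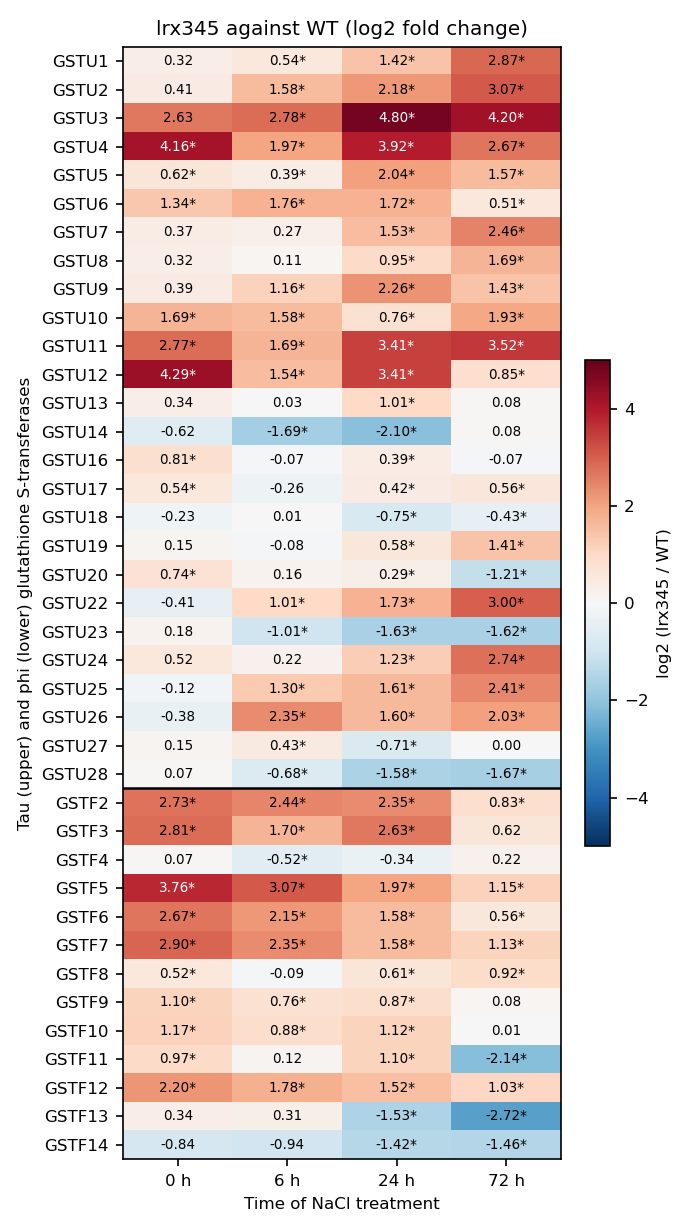
Log2 difference between lrx345 and WT at 0, 6, 24 and 72 h of NaCl treatment for the 39 members tested, tau above the line and phi below it. The colour scale runs from -5 (blue, lower in lrx345) to 5 (red, higher), the value is printed in each cell, and a star marks an adjusted p below 0.05. The value of the phi gene GSTF2 shrinks from 2.73 to 0.83, and that of the tau gene GSTU1 grows from 0.32 to 2.87. Neither gene stands for its whole class. Between 0 and 72 h the change in this difference was called upward for 10 of 26 tau genes and downward for 6. It was called downward for 10 of 13 phi genes. Of all genes tested 15.3% were called upward and 16.9% downward, so the 6 tau genes downward are not far above the share.

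*GSTF12* (AT5G17220), the anthocyanin carrier known as TT19, can be read beside the late anthocyanin genes it works with. Its FPKM at 0 h was 6.19 and 6.5 in WT and 30.1 and 28.3 in *lrx345*. At 6 h it was 19, 12.4 and 13 in WT and 51.2, 52.4 and 50.5 in *lrx345*, and at 72 h 4.20 to 6.63 and 10.4 to 12.1. Both genotypes peaked at 6 h, and the mutant was above WT at every time, by 2.20 on the log2 scale at 0 h (SE 0.21, adjusted p = 3.98e-08) and by 1.03 at 72 h (SE 0.20, adjusted p = 8.95e-05). All 5 anthocyanin genes of the list (*DFR*, *LDOX*, *UF3GT* and the regulators *PAP1* and *TT8*) were higher in *lrx345* at 0, 6 and 24 h, and 3 of 5 at 72 h. Of all genes tested 10.0%, 18.3%, 24.3% and 31.3% were higher at 0, 6, 24 and 72 h. *LDOX*, the anthocyanidin synthase, differed by 3.09 at 0 h and 1.41 at 72 h, and *DFR*, the reductase before it, by 2.82 and 0.79. For *GSTF12* the change from 0 h to 72 h was -0.23 in WT (adjusted p = 0.434) and -1.4 in *lrx345* (adjusted p = 3.43e-07).

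*GSTF11* (AT3G03190) and *GSTU20* (AT1G78370), linked to the synthesis of aliphatic glucosinolates, were the 2 members that were higher in *lrx345* at 0 h and lower at 72 h, which 0.866% of all genes tested were. The FPKM of *GSTU20* was 366 and 347 in WT and 633 and 558 in *lrx345* at 0 h. At 72 h it was 498, 581 and 566 in WT and 254, 241 and 216 in *lrx345*. No library overlapped at either time, and the order of the genotypes was opposite. The log2 difference was 0.74 at 0 h (SE 0.11, adjusted p = 2.29e-05) and -1.21 at 72 h (SE 0.09, adjusted p = 7.98e-11). For *GSTF11* the FPKM was 9.09 and 10.5 in WT and 21.1 and 16.9 in *lrx345* at 0 h, and 10.6, 12 and 10.2 and 2.07, 2.85 and 2.36 at 72 h. Its log2 difference was 0.97 at 0 h (SE 0.20, adjusted p = 0.00103) and -2.14 at 72 h (SE 0.21, adjusted p = 8.74e-09). *GSTU13*, needed in the breakdown of indole glucosinolates after pathogen attack, differed at 24 h alone, by 1.01 (SE 0.15, adjusted p = 7.26e-06), with 57.2, 41.5 and 43.8 in WT and 107, 98.7 and 80.5 in *lrx345*.

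Within WT, after 6 h 18 members were higher and 7 lower than at 0 h (19.3% and 20.8% of all genes), and of the 18, 16 were tau genes. After 24 h 9 were higher and 10 lower (16.1% and 15.4% of all genes), and after 72 h 19 were higher and 4 lower (24.7% and 23.2%). The comparisons with 0 h share their 0 h libraries. The 3 largest rises at 72 h in WT under the rule for naming were those of *GSTF3* (3.31, SE 0.47, adjusted p = 4.61e-06), *GSTU3* (3.27, SE 0.80, adjusted p = 0.00177) and *GSTU9* (2.78, SE 0.36, adjusted p = 1.47e-06). *GSTU9* went from 9.96 and 8.84 FPKM at 0 h to 114, 49.2 and 29.1 at 72 h in WT. The first of these 3 libraries was above the others for *GSTU3*, *GSTU4*, *GSTU11* and *GSTU12* as well, and it held the highest level of the group for 25 of 39 members. In the other groups of 3 libraries, replicate 1 held it for 16 (WT at 24 h) to 30 (*lrx345* at 24 h) of the 39. The share over all genes was not computed. Of the members that fell in WT at 72 h, *GSTU19* changed by -0.48 (SE 0.10, adjusted p = 0.000234) and *GSTU27* by -0.36 (adjusted p = 0.0103, and 0.0561 and 0.0540 without either WT library of 0 h). *GSTU17*, which acts in light signalling, rose from 16.3 and 19.6 at 0 h to 52.9 to 63.7 at 6 h (log2 change 1.68, adjusted p = 2.24e-08) and was back at 16 to 19.7 at 72 h.

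The member that fell most from 0 h was *GSTF14*. In WT its FPKM was 35.3 and 43.4 at 0 h, 1.71 to 3.25 at 6 h, 8.36 to 10.6 at 24 h and 1.90 to 4.57 at 72 h. In *lrx345* it was 34.5 and 8.71 at 0 h, with a wide gap between the libraries, and 0.566 to 1.72 at 6 h and 0.955 to 1.56 at 72 h. Every treated library of both genotypes was below the untreated ones of WT, and the fall from 0 h to 72 h was -3.64 in WT (SE 0.39, adjusted p = 7.19e-08) and -4.26 in *lrx345* (SE 0.48, adjusted p = 5.04e-08) on the log2 scale. The test of the difference between these falls gave -0.63 (SE 0.69, adjusted p = 0.529).

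In *lrx345*, 17 members were higher and 17 lower after 6 h than at 0 h (23.9% and 23.1% of all genes), 14 higher and 12 lower after 24 h (27.5% and 26.4%), and 20 higher and 13 lower after 72 h (34.4% and 33.0%). The classes went apart. Of 26 tau genes 18 were higher and 5 lower after 72 h, and of 13 phi genes 2 were higher and 8 lower. The largest rises were those of *GSTU3* (4.85, SE 0.44, adjusted p = 1.72e-09), *GSTU9* (3.81, SE 0.36, adjusted p = 2.90e-09) and *GSTU2* (3.63, SE 0.21, adjusted p = 1.12e-12). After *GSTF14*, the largest falls under the rule were those of *GSTF11* (-2.95, SE 0.22, adjusted p = 4.28e-11) and *GSTF10* (-1.41, SE 0.13, adjusted p = 1.68e-09).

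Between genotypes, 22 members were higher and 4 lower in *lrx345* at 6 h, where 18.3% of all genes were higher and 17.7% lower. At 24 h 31 were higher and 7 lower (24.3% and 28.4% of all genes), and at 72 h 24 were higher and 7 lower (31.3% and 30.7%). At 24 h all 26 tau genes tested were called, 21 of them higher. Of these, *GSTU16* (0.39) and *GSTU17* (0.42) were at 0.28 and 0.16 with adjusted p = 0.168 and 0.294 without *lrx345* replicate 1. They had adjusted p = 0.160 and 0.0604 without WT replicate 3, and *GSTU16* had 0.0688 and 0.0765 without replicate 2 of WT and of *lrx345*. Over the 4 times, 11 members were higher in *lrx345* at each (6 tau and 5 phi), which 5.08% of all genes tested were. These were *GSTU4*, *GSTU5*, *GSTU6*, *GSTU10*, *GSTU11*, *GSTU12*, *GSTF2*, *GSTF5*, *GSTF6*, *GSTF7* and *GSTF12*. Groupings by the time at which members differed were made after the values were seen. The call of *GSTU12* at 72 h (log2 difference 0.85, adjusted p = 0.0172) had adjusted p = 0.0763 without WT replicate 2, 0.0660 without WT replicate 3 and 0.0501 without *lrx345* replicate 2. That of *GSTU6* at 72 h (0.51) was lost without any of 5 of the 6 libraries, with adjusted p from 0.0649 to 0.172, and that of *GSTU5* at 6 h (0.39) without any of 4 of the 6 libraries, with adjusted p from 0.0681 to 0.205.

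Another 11 members were not called at 0 h and were higher in *lrx345* at 24 h and 72 h, and all 11 were tau genes (11.5% of all genes tested had this pattern). They were *GSTU1*, *GSTU2*, *GSTU3*, *GSTU7*, *GSTU8*, *GSTU9*, *GSTU19*, *GSTU22*, *GSTU24*, *GSTU25* and *GSTU26*. With 2 libraries per genotype at 0 h, a gene that was not called can still have differed then. *GSTU3* was at 0.252 and 0.410 FPKM in WT and 2.03 and 2.23 in *lrx345* at 0 h, and narrowly missed the call. For *GSTU3* and *GSTU9* the response difference at 72 h was not called. *GSTU1* (AT2G29490), whose promoter holds the paired word shown above, had an FPKM of 13.7 and 11.6 in WT and 16.5 and 15.1 in *lrx345* at 0 h. At 24 h it was 6.12 to 6.66 in WT and 13.6 to 21.6 in *lrx345*, and at 72 h 17, 9.03 and 8.44 in WT and 87.3, 80.1 and 87.2 in *lrx345*. The mutant libraries were above the WT libraries at each of these times, by the widest gap at 72 h, with a log2 difference of 0.32 at 0 h (SE 0.24, adjusted p = 0.424) and 2.87 at 72 h (SE 0.19, adjusted p = 9.78e-12). *GSTU7* (AT2G29420), the other gene with the pair, had 31.3 and 38.7 in WT and 45.8 and 44.5 in *lrx345* at 0 h, and 40.9, 31.5 and 32.4 and 216, 184 and 181 at 72 h (log2 difference 2.46, SE 0.14, adjusted p = 5.93e-13). *GSTU2*, which has no TGACG in its window, had 3.59 to 5.33 in WT and 38.4 to 41.6 in *lrx345* at 72 h (log2 difference 3.07, SE 0.17, adjusted p = 6.26e-13).

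*GSTU24* and *GSTU25*, which act in the detoxification of the explosive trinitrotoluene, and *GSTU26* form an array of 3 genes. At 72 h the FPKM of *GSTU24* was 31.8, 24.2 and 19.7 in WT and 173, 159 and 177 in *lrx345*. It had been 20.3 and 25.1 in WT and 29.8 and 35.5 in *lrx345* at 0 h. The genotypes did not overlap at 72 h, with a log2 difference of 2.74 (SE 0.16, adjusted p = 9.65e-13). *GSTU26* differed sooner, with 31.8 to 34.5 in WT and 132 to 191 in *lrx345* at 6 h (log2 difference 2.35, SE 0.23, adjusted p = 1.69e-08). *GSTU19*, an abundant enzyme with broad conjugating activity, had 271 and 276 in WT and 303 and 305 in *lrx345* at 0 h. At 72 h it had 215, 189 and 184 in WT and 513, 511 and 545 in *lrx345* (log2 difference 1.41, SE 0.09, adjusted p = 3.36e-12).

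*GSTU3* (AT2G29470) and *GSTU11* (AT1G69930) had the largest genotype differences at 72 h. The FPKM of *GSTU3* was 6.08, 2.72 and 0.816 in WT and 64.9, 50.5 and 68.6 in *lrx345*, a log2 difference of 4.20 (SE 0.35, adjusted p = 5.39e-10). That of *GSTU11* was 15.4, 6.82 and 3.70 in WT and 95.7, 98.0 and 109 in *lrx345*, a log2 difference of 3.52 (SE 0.25, adjusted p = 2.72e-11). The WT libraries were spread widely in both genes, and the first was the highest, but all lay far below the mutant. *GSTU3* was also first by the rule for naming (mean count of at least 50) at 24 h, with 0.616 to 0.726 in WT and 13.6 to 27.9 in *lrx345* (log2 difference 4.80, SE 0.51, adjusted p = 3.71e-08), and at 6 h (2.78).

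**Figure D3:**
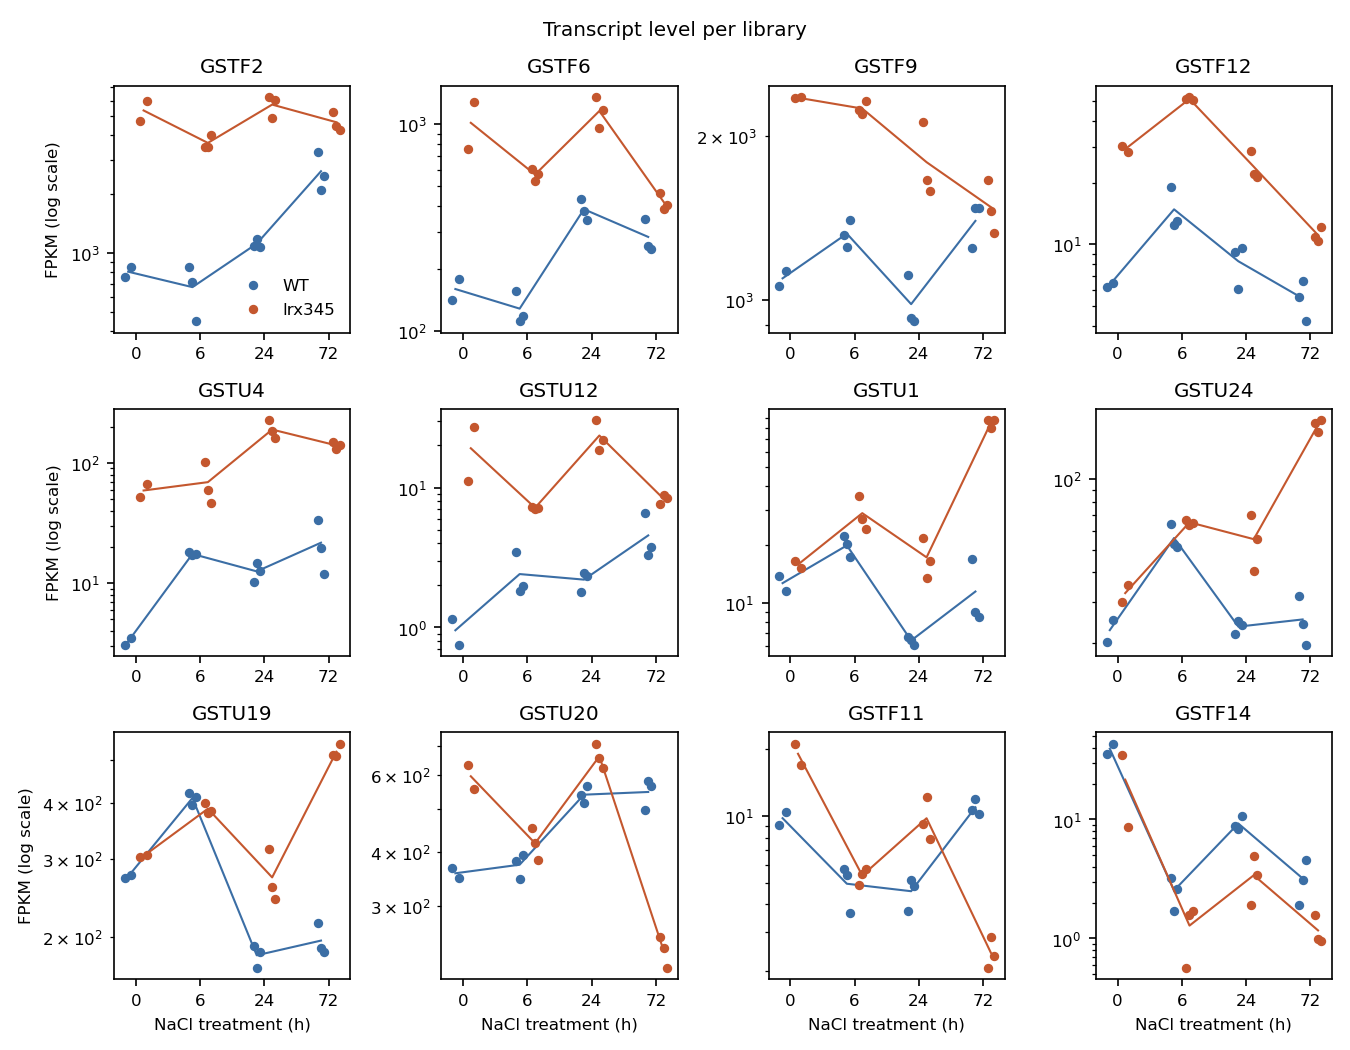
Transcript level (FPKM, log axis of its own in each panel) of 12 members by time of NaCl treatment (h), WT in blue and lrx345 in orange. Points are libraries and lines join group means. GSTF2, GSTF6 and GSTF9 of WT and lrx345 draw together, GSTU1, GSTU24 and GSTU19 draw apart at 72 h, and the genotypes change order in GSTU20 and GSTF11.

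Whether the response to NaCl differed between genotypes was tested as the change in *lrx345* minus the change in WT, over the same 0 h libraries. At 6 h 4 members responded more strongly upward in *lrx345* and 5 less (5.20% and 3.44% of all genes), at 24 h 10 and 9 (9.55% and 8.28%), and at 72 h 10 and 16 (15.3% and 16.9%). All 10 of the higher responses at 72 h were of tau genes, and the 16 lower ones were 10 of the 13 phi genes and 6 tau genes. The median response difference at 72 h was 0.72 for tau and -1.77 for phi on the log2 scale, beside -0.01 over all genes. The largest higher one was *GSTU22* at 3.41 (SE 0.40, adjusted p = 7.54e-07). Its FPKM was 5.32 and 8.48 in WT and 5.07 and 5.33 in *lrx345* at 0 h, and 6.01, 3.41 and 2.74 and 35.6, 24.0 and 40.1 at 72 h. The largest lower ones were *GSTU12* at -3.44 (SE 0.55, adjusted p = 3.94e-05) and *GSTF11* at -3.11 (SE 0.29, adjusted p = 2.83e-08). Over 72 h, 7 members were called in opposite directions in the genotypes. The share of all genes with such calls was not computed, so the count is a description only. *GSTU12*, *GSTU20*, *GSTF6*, *GSTF7* and *GSTF9* rose in WT and fell in *lrx345*, and *GSTU19* and *GSTU22* did the reverse. The fall of *GSTU22* in WT (-0.74, adjusted p = 0.0428) had adjusted p = 0.481 without the unnumbered WT library at 0 h and 0.116 and 0.169 without WT replicates 2 and 3 at 72 h. That of *GSTU12* in *lrx345* (-1.17) was -0.42 (adjusted p = 0.218) without *lrx345* replicate 2 at 0 h. The rises of *GSTF7* and *GSTF9* in WT (0.77 and 0.35) had adjusted p = 0.0632 and 0.150 without WT replicate 1 at 0 h, and that of *GSTF9* also 0.0603 without the unnumbered library and 0.0758 and 0.0673 without WT replicates 2 and 3 at 72 h.

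**Figure D4:**
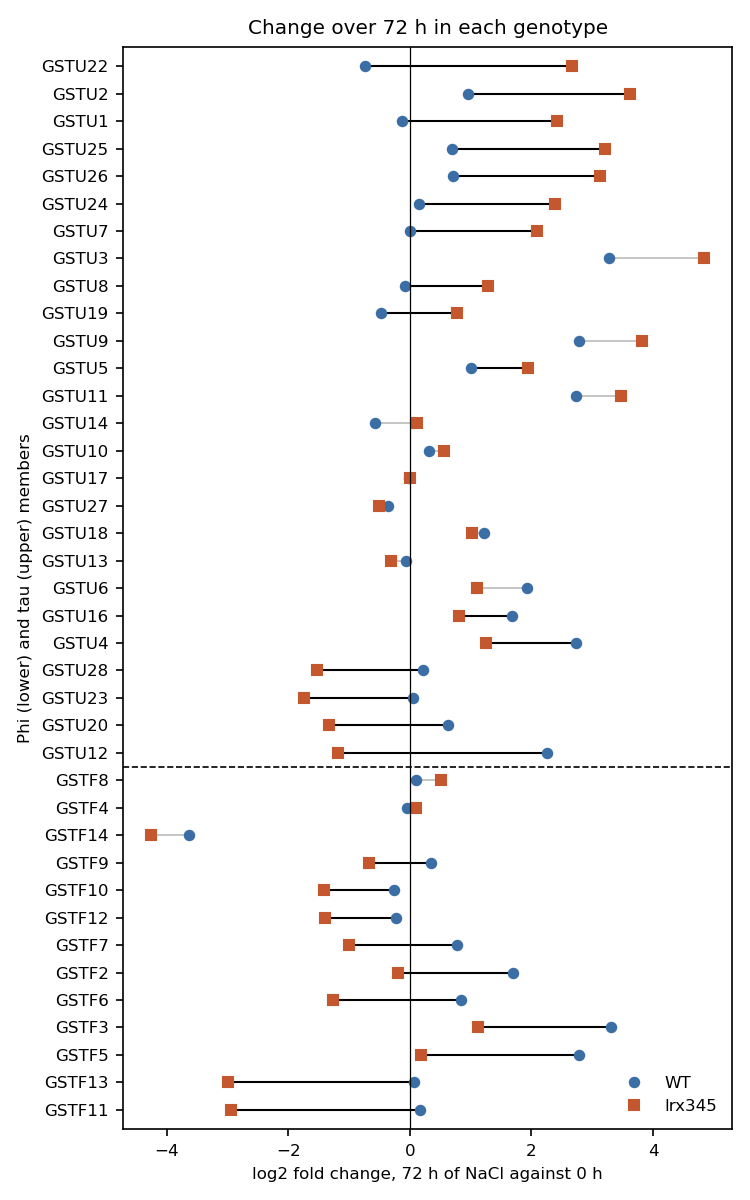
Log2 change from 0 h to 72 h of NaCl in WT (blue circles) and lrx345 (orange squares) for the 39 members tested, tau above the dashed line and phi below it, each class ordered by the difference. A black line joins the genotypes where the difference had an adjusted p below 0.05 and a grey line where it did not. The lrx345 square is to the right for all 10 tau genes with a called higher response and to the left for the 10 called phi genes.

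The tandem arrays held members of different courses. In all, 29 members lay in 9 arrays. In the largest, *GSTU7* to *GSTU1* on chromosome 2 (12617936 to 12632473, TAIR10, 7 genes), each gene was higher in *lrx345* at 24 h and 72 h. At 0 h 3 of the 7 were called, *GSTU4*, *GSTU5* and *GSTU6*. *GSTU4* stood at 4.16 at 0 h and 2.67 at 72 h, whereas *GSTU1* and *GSTU2* went from 0.32 and 0.41 to 2.87 and 3.07. In the array on chromosome 1 from *GSTU23* to *GSTU19* (29467437 to 29487906, 5 genes), neighbours differed in sign at 72 h, with -1.62 for *GSTU23*, 3.0 for *GSTU22*, -1.21 for *GSTU20* and 1.41 for *GSTU19*. In the array *GSTF7* to *GSTF4* (658657 to 666452, 4 genes) the first 3 were higher in *lrx345* at all 4 times and *GSTF4* had log2 differences from -0.52 to 0.22.

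**Figure D5:**
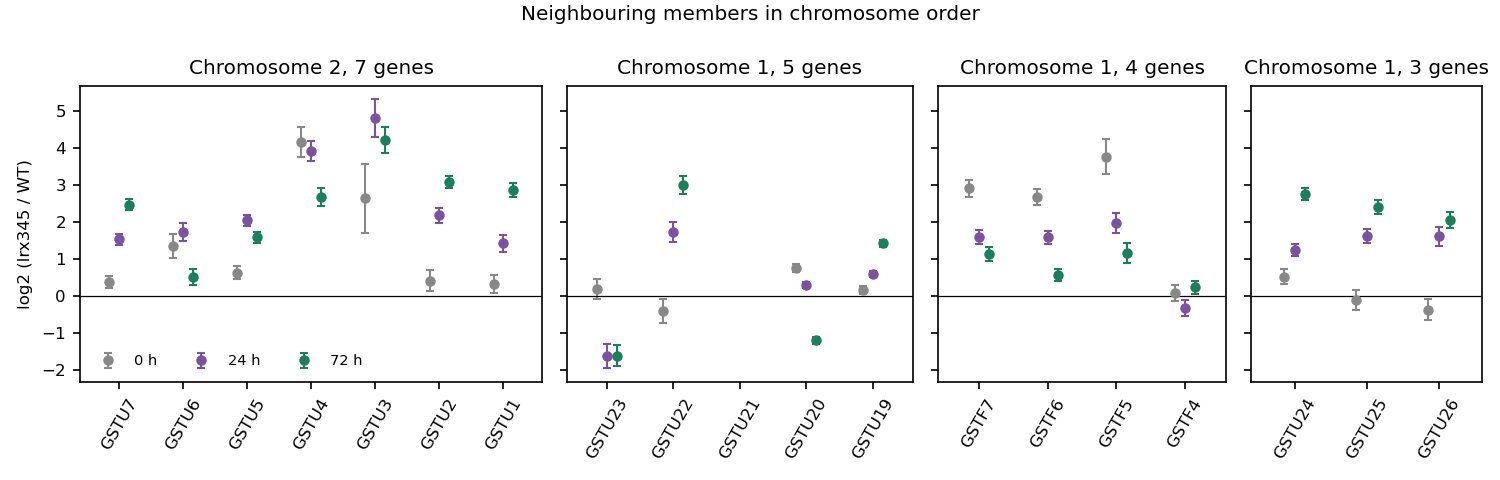
Log2 difference between lrx345 and WT (points) with its SE (bars) at 0, 24 and 72 h for the members of the 4 arrays with most genes, in chromosome order. GSTU21 was not tested. At 72 h all 7 genes of the chromosome 2 array and all 3 of GSTU24 to GSTU26 are above 0, while the 5-gene array holds values from -1.62 to 3.0.

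Some members fell below WT in the mutant. Not called at 0 h and lower at both 24 h and 72 h were 5 members, *GSTU18*, *GSTU23*, *GSTU28*, *GSTF13* and *GSTF14* (14.1% of all genes tested). As a count, 5 of 39 is near the share of all genes, and the values of single members are given as a description. *GSTU23* was at 3.65, 4.85 and 6.6 in WT and 1.15, 1.88 and 1.72 in *lrx345* at 72 h (log2 difference -1.62, SE 0.28, adjusted p = 2.99e-05). *GSTU28* was at 9.49, 8.87 and 11.3 in WT and 3.5, 2.65 and 3.21 in *lrx345* (-1.67, SE 0.21, adjusted p = 3.48e-07). The genotypes of both were apart at 72 h and together at 0 h. *GSTF13* had 5.53 to 8.19 in WT and 0.358 to 1.28 in *lrx345* at 72 h (-2.72, SE 0.49, adjusted p = 4.14e-05). The summed root markers given above were lower in *lrx345* over the same times, by a larger factor at 6 h and 24 h than at 72 h, and their part in these differences was not tested. *GSTU14* was lower at 24 h (-2.10, adjusted p = 0.00138), from counts down to 1, and overlapped WT at 72 h. Its call at 6 h (-1.69, adjusted p = 0.0499) had adjusted p from 0.0597 to 0.154 without any of 5 of the 6 libraries. *GSTU27* had 46.1 to 54.7 in WT and 29.3 to 31.0 in *lrx345* at 24 h and was lower then alone (-0.71, SE 0.11, adjusted p = 9.25e-06). *GSTU18* had 15.8 to 17.6 and 7.96 to 11.8 at 24 h (-0.75, SE 0.16, adjusted p = 0.000358). *GSTF4*, with 4.85 to 6.49 and 3.48 to 4.68 at 6 h (-0.52, adjusted p = 0.0389), had adjusted p from 0.0691 to 0.194 without any of 4 of the 6 libraries, and *GSTU28* at 6 h (-0.68, adjusted p = 0.0414) from 0.0607 to 0.238 without any of 5. The values of *GSTF14* at 24 h and 72 h (-1.42 and -1.46) were lost without *lrx345* replicate 1 at 24 h (adjusted p = 0.0510) and without WT replicate 3 at 72 h (0.141). At 72 h they were also lost without WT replicate 2 (0.0523) and *lrx345* replicates 2 and 3 (0.0944 and 0.0892). *GSTF13* at 24 h (-1.53) had -0.99 and -1.24 with adjusted p = 0.103 and 0.0570 without replicate 1 of WT and of *lrx345*, and *GSTU18* at 72 h (-0.43) had 0.0621 without *lrx345* replicate 1.

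*GSTF8* is an early stress gene whose promoter is a textbook case of the ocs element. The window searched held 1 TGACG, which began 193 bases before the gene, and no pair of the form counted above. Sequence further upstream was not searched. The FPKM of *GSTF8* was 137 and 134 in WT and 190 and 199 in *lrx345* at 0 h. At 72 h it was 136 to 158 in WT and 247 to 293 in *lrx345* (log2 difference 0.92, SE 0.13, adjusted p = 1.73e-06). *GSTU16* and *GSTU18* rose from 0 h to 72 h in both genotypes, by 1.68 and 0.80 (*GSTU16*) and by 1.23 and 1.03 (*GSTU18*) in WT and *lrx345*. *GSTU5* had 51.3 and 49.6 in WT and 77.7 and 77.5 in *lrx345* at 0 h and 96.2 to 108 and 271 to 324 at 72 h (log2 difference 1.57, SE 0.15, adjusted p = 2.99e-09). *GSTU8* and *GSTU10* ended at 1.69 and 1.93 above WT, and *GSTF3*, the rare near copy of *GSTF2*, at 0.62 (adjusted p = 0.0720).

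The genes around the conjugation step were read from lists that do not overlap the members, beside the 10.0%, 18.3%, 24.3% and 31.3% of all genes that were higher at 0, 6, 24 and 72 h. Of 6 tested genes of glutathione synthesis, recycling and breakdown, 5 were higher in *lrx345* at 0 h, 4 at 6 h, 5 at 24 h and 4 at 72 h, with 1 lower at 72 h. At 72 h 30.7% of all genes were lower. *GSH1*, the glutamate-cysteine ligase that limits glutathione synthesis, had 169 and 187 FPKM in WT and 307 and 346 in *lrx345* at 0 h, and 138 to 149 and 357 to 490 at 24 h (log2 difference 1.49, SE 0.11, adjusted p = 4.76e-11). *GSH2*, the glutathione synthetase, moved alike (0.89 at 0 h, 1.63 at 24 h, 0.56 at 72 h). *GGT1*, a gamma-glutamyl transpeptidase of the cell wall space, differed by 2.20 at 24 h (SE 0.13, adjusted p = 3.41e-12). Of the 3 vacuolar conjugate transporters none was called at 0 h, 1 was higher at 6 h, 2 at 24 h and 3 at 72 h, led by *ABCC3* with 1.99 at 24 h (SE 0.20, adjusted p = 2.24e-08).

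Among the 7 TGA factors and *SCL14*, a GRAS protein that binds TGA factors at detoxification genes, 1 of 8 was higher at 0 h, 1 at 6 h, 2 at 24 h and 5 at 72 h, where all genes gave 10.0%, 18.3%, 24.3% and 31.3%, so that the first 3 counts are near or below the share of all genes. *SCL14* had 11.2 and 11.5 in WT and 12.2 and 13.3 in *lrx345* at 0 h, and 16.5 to 20.2 and 35.3 to 40.1 at 72 h (log2 difference 1.05, SE 0.08, adjusted p = 8.24e-11). *TGA2*, *TGA5* and *TGA6*, the redundant factors of the oxylipin response, were at 8.00 to 15.1 FPKM (*TGA2* and *TGA5*) and 3.66 to 6.54 (*TGA6*) over all libraries, with log2 genotype differences from -0.19 to 0.28. Of 12 GST genes of the other classes 3 were higher at 0, 6 and 24 h and 5 at 72 h, with 1 lower at 6 h and at 72 h. The higher counts at 6 and 24 h are near the share of all genes. The lower counts are below it, as 17.7% of all genes were lower at 6 h and 30.7% at 72 h. *DHAR1*, a dehydroascorbate reductase, differed by 1.41 at 0 h and 0.48 at 72 h, and *GSTZ1*, which acts in tyrosine breakdown, by 0.62 and 1.71.

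The counting bears on a few of these values. Coding sequences of *GSTF2* and *GSTF3* were 94.5% identical and those of *GSTF6* and *GSTF7* 94.3%, and 3.72% of the 50-base windows of *GSTF2* and 10.4% of those of *GSTF6* also occurred in another member. Fragments that mapped to several places were left out by the authors, and what remains can still be split wrongly between such copies, so the division within each pair is uncertain. Exons of *GSTF4*, *GSTF8* and *GSTU7* share 268, 219 and 52 bases with AT1G02952, AT2G47720 and AT2G29410. Strand was not used in counting, and fragments that fell on several genes were left out. Fragments that could belong to either gene of an overlap were thus not counted, and these members can be undercounted.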

How the data were processed

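RNA-seq of 22 Arabidopsis seedling libraries (8 groups) was read from 1 table of fragment counts per gene. The authors mapped reads to TAIR10 with TopHat2 (version not given in the sources used here) and deposited counts made with featureCounts 1.4.6, per the file headers as fragments per exon set, without strand and without fragments that mapped to several places or genes. Libraries held 7413461 to 15047080 counts. A WT column at 0 h whose number is in no label was used without a number. Same-group libraries differed beyond sampling noise (chi-square per degree of freedom 2.46 to 14.5). The 8 group means were fitted in 1 edgeR 4.0.16 quasi-likelihood model (R 4.3.3, TMM, filterByExpr, 21831 genes, Benjamini-Hochberg adjustment, threshold 0.05), tested on simulated data. Standard errors are the absolute log2 value over the square root of F and are approximate. Alternatives were DESeq2 1.42.0, upper-quartile factors, no count filter, a filter on mean counts under 20, the replicate block, only the groups compared, a fold above 2 and each library left out. FPKM was computed from counts, exon length and TMM-scaled library size. Members named with full values were the 3 with the largest change in each direction (mean count of at least 50, no overlap of libraries) per comparison of genotypes and of 72 h with 0 h, and those of known role. Other named members, and all groupings by time, were chosen after their values were seen. The members and lists were chosen with earlier results of these data known. Promoters were read from RefSeq TAIR10.1, on which all 58 introns of members run from GT to AG, as do 97.7% of 120956 introns of nuclear genes.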

Additional observations from a re-analysis of the deposited data

Results flagged for a closer look

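The response of a member to NaCl, as the change from 0 h in *lrx345* minus that in WT, differed between genotypes in 54 cases by edgeR's quasi-likelihood test of the difference (Benjamini-Hochberg adjusted p below 0.05), 9 at 6 h, 19 at 24 h and 26 at 72 h. Of all genes tested 5.20% were called higher and 3.44% lower at 6 h, 9.55% and 8.28% at 24 h, and 15.3% and 16.9% at 72 h. The 3 times share their 0 h libraries. All values are on the log2 scale, and positive values are higher in *lrx345*.

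At 6 h the response was higher in *lrx345* by 2.73 for *GSTU26*, 1.42 for *GSTU22*, 1.41 for *GSTU25* and 1.17 for *GSTU2*. At 6 h the response was lower in *lrx345* by -0.58 for *GSTU20*, -0.80 for *GSTU17*, -0.88 for *GSTU16*, -2.19 for *GSTU4* and -2.75 for *GSTU12*.

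At 24 h the response was higher in *lrx345* by 2.14 for *GSTU22*, 1.98 for *GSTU26*, 1.87 for *GSTU9*, 1.77 for *GSTU2*, 1.73 for *GSTU25*, 1.42 for *GSTU5*, 1.16 for *GSTU7*, 1.10 for *GSTU1*, 0.64 for *GSTU8* and 0.43 for *GSTU19*. At 24 h the response was lower in *lrx345* by -0.45 for *GSTU20*, -0.86 for *GSTU27*, -0.93 for *GSTU10*, -1.09 for *GSTF6*, -1.32 for *GSTF7*, -1.65 for *GSTU28*, -1.79 for *GSTF5*, -1.81 for *GSTU23* and -1.87 for *GSTF13*.

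At 72 h the response was higher in *lrx345* by 3.41 for *GSTU22*, 2.67 for *GSTU2*, 2.54 for *GSTU1*, 2.53 for *GSTU25*, 2.41 for *GSTU26*, 2.23 for *GSTU24*, 2.1 for *GSTU7*, 1.38 for *GSTU8*, 1.26 for *GSTU19* and 0.95 for *GSTU5*. At 72 h the response was lower in *lrx345* by -0.88 for *GSTU16*, -1.02 for *GSTF9*, -1.16 for *GSTF10*, -1.17 for *GSTF12*, -1.49 for *GSTU4*, -1.75 for *GSTU28*, -1.77 for *GSTF7*, -1.80 for *GSTU23*, -1.90 for *GSTF2*, -1.95 for *GSTU20*, -2.11 for *GSTF6*, -2.19 for *GSTF3*, -2.61 for *GSTF5*, -3.06 for *GSTF13*, -3.11 for *GSTF11* and -3.44 for *GSTU12*.

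At 6 h 3 of the 9, at 24 h 8 of the 19 and at 72 h 24 of the 26 were called under every alternative run. The exceptions at 72 h were *GSTF3* (-0.93, adjusted p = 0.194, without *lrx345* replicate 2 at 0 h) and *GSTU4* (adjusted p from 0.0704 to 0.0972 without either WT library of 0 h, *lrx345* replicate 2 at 0 h or WT replicate 1 at 72 h). At 6 h the value of *GSTU2* was 0.52 (adjusted p = 0.571) without WT replicate 1 at 0 h, and its call was also lost without 6 other libraries. The calls of *GSTU16*, *GSTU17*, *GSTU20*, *GSTU22* and *GSTU25* at 6 h were each lost without 1 or more libraries, all of 0 h besides WT replicate 3 at 6 h for *GSTU17*, with adjusted p from 0.0506 to 0.205.

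At 24 h, leaving out *lrx345* replicate 2 of 0 h gave -0.62 for *GSTF6* (adjusted p = 0.118), -0.75 for *GSTF7* (0.0607) and -0.54 for *GSTU10* (0.209). Leaving out WT replicate 1 of 0 h gave -1.02 for *GSTF5* (adjusted p = 0.313), 0.97 for *GSTU1* (0.109) and 1.12 for *GSTU2* (0.0840). The calls of *GSTF13*, *GSTU8*, *GSTU9*, *GSTU19* and *GSTU20* at 24 h were also lost without 1 or more libraries, with adjusted p from 0.0536 to 0.219. No group had 4 libraries, so no library was tested as standing apart from its group.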

How the results depend on the processing

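Of 328 called values of members, 255 kept their call under every alternative, 297 under all those that keep every library, and 0 changed direction. Upper-quartile factors, the mean count of at least 20 and DESeq2 left 323, 325 and 324 of them called. Same-numbered libraries of both genotypes deviated together with correlations from -0.12 to 0.093 and were not taken as pairs. With the replicate block 303 of 328 were still called, and it moved the members lower in *lrx345* at 6 h from 4 to 2, those lower in WT at 72 h from 4 to 2 and the lower responses at 6 h from 5 to 3.

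The 4 lower at 6 h were also 2 with DESeq2, with no filter, in a fit of only the groups compared and with a fold above 2. In a fit of only the groups compared, WT at 24 h had 14 higher (9 otherwise), and the lower responses at 6 h were 8. With a fold above 2, WT had 4 lower at 6 h (of 7), 3 higher (of 9) and 3 lower (of 10) at 24 h, and 11 higher (of 19) and 1 lower (of 4) at 72 h. On the same rule *lrx345* had 9 lower (of 17) at 6 h and 6 lower (of 12) at 24 h, and 2 lower responses were left at 6 h.

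Leaving out 1 library gave 14 to 17 higher and 0 to 1 lower between genotypes at 0 h, 19 to 21 and 1 to 2 at 6 h, 29 to 31 and 5 to 7 at 24 h, and 22 to 25 and 6 to 7 at 72 h. In WT it gave 15 to 19 higher and 6 to 8 lower at 6 h, 7 to 9 and 8 to 9 at 24 h, and 15 to 18 and 2 to 5 at 72 h. In *lrx345* it gave 16 to 17 and 11 to 16, 13 to 17 and 9 to 14, and 18 to 20 and 12 to 14. For the responses it gave 2 to 4 and 3 to 6, 6 to 11 and 5 to 9, and 10 to 12 and 14 to 17. Where 1 library of a 0 h group was left, it was assumed to vary like the other groups. The causes of these shifts were not tested. With 2 libraries per genotype at 0 h, all changes over time rest on few libraries, and members such as *GSTF5* or *GSTU14* on few counts.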
